A study of Mus musculus with 8 samples.

Results

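The comparison described here set late against early T cell receptor (TCR) stimulation in CD8+ T cells that had first met interferon beta (IFNb). It was chosen by treatment label and used 2 of the 8 arrays in the series: 1 array of cells given IFNb for 1 h and then TCR stimulation for 6 h, and 1 array of cells given IFNb for 1 h and then TCR stimulation for 1 h. Each value below is the log2 scaled signal at 6 h minus that at 1 h, per gene, for 19477 genes with a value on both arrays. All groups were splenic CD8+ T cells of OT-I TCR transgenic mice on the C57BL6 background. The transgenic receptor recognises the ovalbumin peptide SIINFEKL on H-2Kb. The stimulus was streptamers loaded with SIINFEKL, a soluble peptide and class I complex. The other arrays, used here for reference, held untreated cells (2 arrays), IFNb alone for 2 h and for 7 h, and TCR stimulation alone for 1 h and for 6 h. The labels do not say how many mice gave each sample.

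A T cell receptor that meets its antigen triggers immediate early transcription factors within minutes, and cytokines, growth and metabolic genes follow over hours, while genes of the resting, recirculating state are shut down. Type I interferon binds its own receptor and, through STAT factors and IRF9, switches on a broad antiviral programme. In CD8+ T cells it also acts as a signal beside antigen and costimulation, and its timing relative to antigen is known to alter the response.

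Every group here had 1 array except the untreated cells, so the differences have no replicate check and no test was made. The arrays of the 6 h and 7 h groups lay on 1 slide and those of the 1 h and 2 h groups on the other, so time and slide cannot be told apart in these values. Each slide also held 1 untreated array, and across genes well above background on both, the SD of the log2 difference between them was 0.20, with 99% of genes within 1.77-fold. Between 26065 and 29533 spots per array were well above background, and no spot was saturated. The deposited value table and the deposited scanner files name the arrays of TCR 1 h and of IFNb with TCR 1 h in opposite ways. The value table's naming was kept throughout, under which antiviral genes are high on the array of IFNb with TCR 1 h. Over untreated, the median of the antiviral list described below was 4.55 on that array and -0.19 on the one kept as TCR 1 h. IFNb alone for 2 h gave 3.21. Which naming is right was not tested, and the direction of interferon genes turns under the other one. Of the 7928 genes past 2-fold described below, 5094 (64.3%) were past 2-fold in the same direction with these arrays exchanged, 2448 (30.9%) came to under 2-fold, 106 (1.34%) turned past 2-fold and 280 had no value. Values with the 1 h arrays exchanged, which is the scanner files' naming, are given for lists and genes that lost their call, turned or moved most, and every contrast of primed with unprimed cells at 1 h turns by construction. Signal is given on the scale of the value table, a linear intensity with the 75th percentile of each array at 1500 and a floor of 15.

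Between 1 h and 6 h of TCR stimulation, primed cells differed by at least 2-fold at 7928 genes. Of the genes compared, 3680 (18.9%) were at least 2-fold higher and 4248 (21.8%) at least 2-fold lower at 6 h. At least 4-fold differences were found for 1141 higher genes (5.86%) and 1821 lower genes (9.35%). Between the untreated arrays of the same slides 161 genes (0.828%) differed by 2-fold or more and 24 (0.123%) by 4-fold or more. Cells without IFNb, compared over the same hours, had 3103 genes (15.9%) at least 2-fold higher and 3261 (16.7%) lower, and 838 (4.3%) and 1178 (6.05%) past 4-fold. With the 1 h arrays exchanged, primed cells had 3048 genes (15.6%) at least 2-fold higher and 3454 (17.7%) lower. Unprimed cells then had 3847 (19.8%) and 3987 (20.5%), so the treatment with more calls turned with the naming. Past 4-fold the exchanged counts were 860 and 1237 in primed and 1190 and 1680 in unprimed cells. The shares of all genes in this paragraph are the reference for the list counts below. IFNb alone, 7 h against 2 h, gave 567 genes (2.91%) at least 2-fold higher and 630 (3.24%) lower. Directions are relative to the 75th percentile: higher genes made up 46.4% of the 2-fold calls, and 64.5% when array medians were set equal, a step that took the median over the whole set from 0.08 to 0.45.

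**Figure D1:**
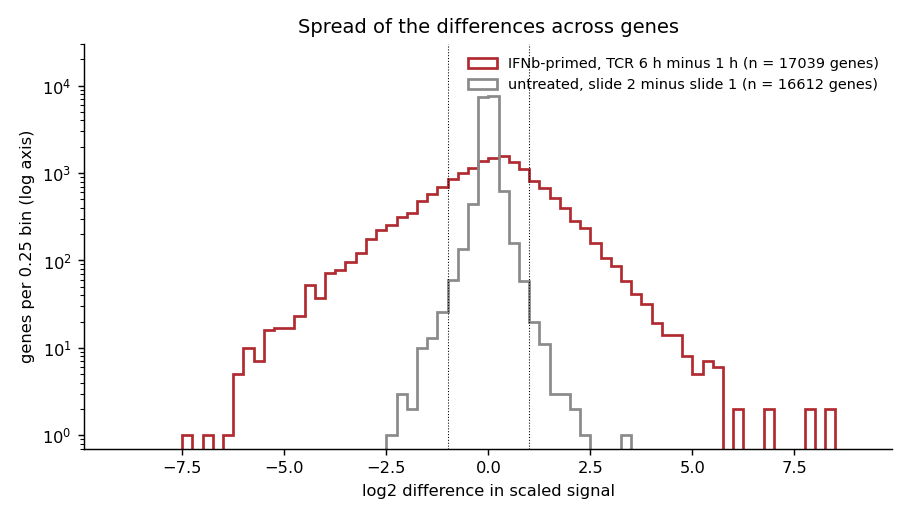
Histogram of log2 differences in scaled signal per gene (x axis) against the number of genes per bin (log y axis), over genes well above background on both arrays. The red line is IFNb-primed cells, TCR 6 h minus 1 h (17039 genes), the grey line the untreated arrays of the same slides (16612 genes), and dotted lines mark 2-fold; the red distribution has an SD of 1.45 and the grey one of 0.20.

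Amino acid enzymes and transporters held many of the widest gaps on the higher side. Bcat1, the cytosolic branched-chain aminotransferase (probe on chr6:144947688-144947747 in mm9), had a signal of 163 at 1 h and 52773 at 6 h, a 324-fold difference, and 182 and 176 in untreated cells. Cth, which makes cysteine from cystathionine, went from 85.9 to 21175, or 246-fold. Pycr1, which makes proline, stood at 61.6 and 4539, or 73.7-fold. For all 3 genes the 1 h array lay within 2-fold of the untreated arrays. Among transporters, Slc7a3, which carries cationic amino acids, was 53-fold higher, Slc6a9, which carries glycine, 48.2-fold, and the folate carrier gene Slc19a1 40.6-fold. In the list of the ATF4 programme and amino acid supply, 21 of 24 genes were at least 2-fold higher and 0 lower, with a median of 2.83, against 0.08 over all genes. Chac1, a glutathione-degrading enzyme, stood at 4.34, Trib3 at 4.12, the asparagine synthetase gene Asns at 4.03 and the serine pathway genes Psat1, Psph and Phgdh at 4.00, 3.93 and 3.07. Atf4 itself was at 1.47, and Vldlr had the lowest value at -0.91. The corresponding median without IFNb was 2.46, and Bcat1 and Cth were there at 7.95 and 8.08. Exchanging the 1 h arrays left 17 of the 24 genes at least 2-fold higher with a median of 2.65, Bcat1 at 8.08, Cth at 8.11 and Pycr1 at 5.40, and took Chac1 to 3.18, Trib3 to 3.20 and Atf4 to 0.44.

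The promoters of genes in this and in the interferon and growth lists were searched for short motifs because most members of these lists differed in the same direction. Windows from 250 bases before to 50 after the start site, from RefSeq on GRCm38.p6, were found by symbol for 12152 of the 19477 genes, with 15265 windows in all. The letters TGATGNAA, a form of the amino acid response element, stood on either strand in 8 of 25 windows of the ATF4 and amino acid list. They stood in 3.81% of windows of genes at least 4-fold higher, 2.80% of those at least 4-fold lower and 2.61% of all windows. For the aminoacyl-tRNA synthetases the share was 38.5% of 13 windows. The E-box CACGTG, which reads the same on both strands and which MYC with MAX can bind, stood in 19.2% of 52 windows of ribosome biogenesis genes, 16.3% of windows of genes at least 4-fold higher, 7.00% of those at least 4-fold lower and 9.12% of all windows. The share did not follow the direction of a list throughout: it was 30.8% for the aminoacyl-tRNA synthetases, 21.7% of 23 windows for cholesterol and fatty acid synthesis, a list that went both ways (median 0.56), and 14.7% for the immediate early factors, which were mostly lower. One-carbon and nucleotide genes had it in 4 of 25 windows, the ATF4 list in 3 of 25 and the naive state list in 3 of 40. The core of the interferon-stimulated response element was searched as GAAA, any 2 bases and GAAA again, on both strands. It stood in 41.2% of 51 windows of antiviral genes, in 80.0% of 10 windows of interferon-inducible GTPases, in 6.23% of windows of genes at least 4-fold lower, 2.54% of those at least 4-fold higher and 3.19% of all windows. Within the 2 interferon lists the 27 genes with the core in a window had a median difference of -3.02 and the 23 without it one of -2.75. The following stretches come from the 2 genes with the widest differences in the ATF4 list, the ribosome biogenesis list and the pooled interferon lists among those with a match before the start site. They show the match nearest to that site with up to 45 bases on each side, have every match in the stretch in capitals and carry GRCm38.p6 coordinates.
Pycr1, amino acid response element, chr11:120643799-120643896, minus strand: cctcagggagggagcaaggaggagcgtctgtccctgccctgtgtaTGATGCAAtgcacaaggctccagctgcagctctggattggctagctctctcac
Chac1, amino acid response element, chr2:119351004-119351101, plus strand: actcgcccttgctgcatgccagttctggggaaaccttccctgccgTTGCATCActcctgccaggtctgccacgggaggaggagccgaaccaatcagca
Nop2, E-box, chr6:125131778-125131873, plus strand: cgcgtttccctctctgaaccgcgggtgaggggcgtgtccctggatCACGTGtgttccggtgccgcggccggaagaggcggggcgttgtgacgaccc
Imp4, E-box, chr1:34439663-34439758, plus strand: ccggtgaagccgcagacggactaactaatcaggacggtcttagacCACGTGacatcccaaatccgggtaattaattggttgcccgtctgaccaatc
Ifit1, response element core, chr19:34640759-34640858, plus strand: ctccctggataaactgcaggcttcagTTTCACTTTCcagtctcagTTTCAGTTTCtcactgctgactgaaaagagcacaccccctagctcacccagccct
Slfn5, response element core, chr11:82951902-82952001, plus strand: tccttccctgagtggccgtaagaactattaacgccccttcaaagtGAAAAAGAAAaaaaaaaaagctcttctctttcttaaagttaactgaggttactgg
The Ifit1 stretch holds 2 cores. These matches are a description of the letters, not of binding. The other motifs were the cAMP element TGACGTCA (2.93% of windows of genes at least 4-fold higher, 1.71% of those lower, 2.73% of all), the AP-1 site TGANTCA (5.28%, 6.15% and 5.70%), the EGR site GCGGGGGCG (4.40%, 6.46% and 4.76%), the sterol element TCACNCCAC (0.98%, 1.17% and 1.15%) and the GC box GGGCGG (63.9%, 55.7% and 55.8%), all on both strands. Among the lists searched, the AP-1 site had its highest shares in antiviral genes (19.6% of 51 windows) and GTPases (20.0% of 10). The EGR site had its highest share in the immediate early factors (23.5% of 34 windows). An EGR match followed by G also holds a GC box.

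As the value table names the arrays, several cytokine genes were lower at 1 h in primed than in unprimed cells and had wider late differences. Csf2, the gene of GM-CSF (chr11:54060772-54060799 in mm9), had a signal of 48.9 at 1 h and 14906 at 6 h, a 305-fold difference, while cells without IFNb had 796 and 12656. Il2, the T cell growth factor, went from 1133 to 57190 in primed cells and from 19252 to 71358 in unprimed cells. Il3, a growth factor for myeloid precursors, went from 133 to 4168 in primed and from 1591 to 4818 in unprimed cells. The primed 1 h array was the low one of the 4 for all 3 genes, and the 6 h levels lay close together. Xcl1, a chemokine for cross-presenting dendritic cells, followed the same order, with 8956 and 366913 in primed cells and 96340 and 283541 in unprimed cells. The primed log2 differences of these genes were 8.25 for Csf2, 5.66 for Il2, 4.97 for Il3 and 5.36 for Xcl1, and the unprimed ones 3.99, 1.89, 1.60 and 1.56. Under the scanner files' naming the primed values became 4.23, 1.57, 1.39 and 1.93 and the unprimed ones 8.01, 5.98, 5.18 and 4.98, so the order of the treatments turned for all 4 genes.

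Of 30 cytokine and chemokine genes, 17 were at least 2-fold higher in primed cells, against 18.9% of all genes, and 5 lower, against 21.8%. The primed median was 1.25. Unprimed cells had 12 higher and 7 lower, against 15.9% and 16.7% of all genes, with a median of 0.27. With the 1 h arrays exchanged the primed list had 12 higher, 7 lower and a median of 0.67 and the unprimed list 16, 7 and 1.61. The inflammatory chemokine genes Ccl3 and Ccl4 were 5.43-fold and 3.36-fold higher. Ccl9 stood at 4.99, Tnfsf8, the CD30 ligand gene, at 3.39, Lta at 2.46 and Mif at 2.94. Ccl1 was not well above background at 1 h and was at least 46.9-fold higher at 6 h, with a signal of 1249, and Il23a was at least 30.3-fold higher. Ifng, the gene of the main effector cytokine, was already high at 1 h, with 132698 then and 147456 at 6 h, and its log2 difference of 0.15 became -0.45 with quantile normalization. Tnf stood at 27928 and 17779. Lower at 6 h were Csf1 at -4.45, the TRAIL gene Tnfsf10 at -3.37, Cxcl10 at -2.87, Cd40lg at -1.58 and Il10 at -1.13. Csf1 and Tnfsf10 were low in untreated cells (signal of 50.1 to 58.1) and higher on both arrays of IFNb alone (736 to 1908), and under the scanner files' naming their values were 0.64 and 0.72. That naming also took Cxcl10 to 2.52, Lta to 0.27, Ccl3 to 0.70, Ccl4 to 0.59, Tnfsf8 to 6.42, Tnf to -2.12 and Cd40lg to -4.20, and made Ccl1 and Il23a 9.10-fold and 4.02-fold higher.

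**Figure D2:**
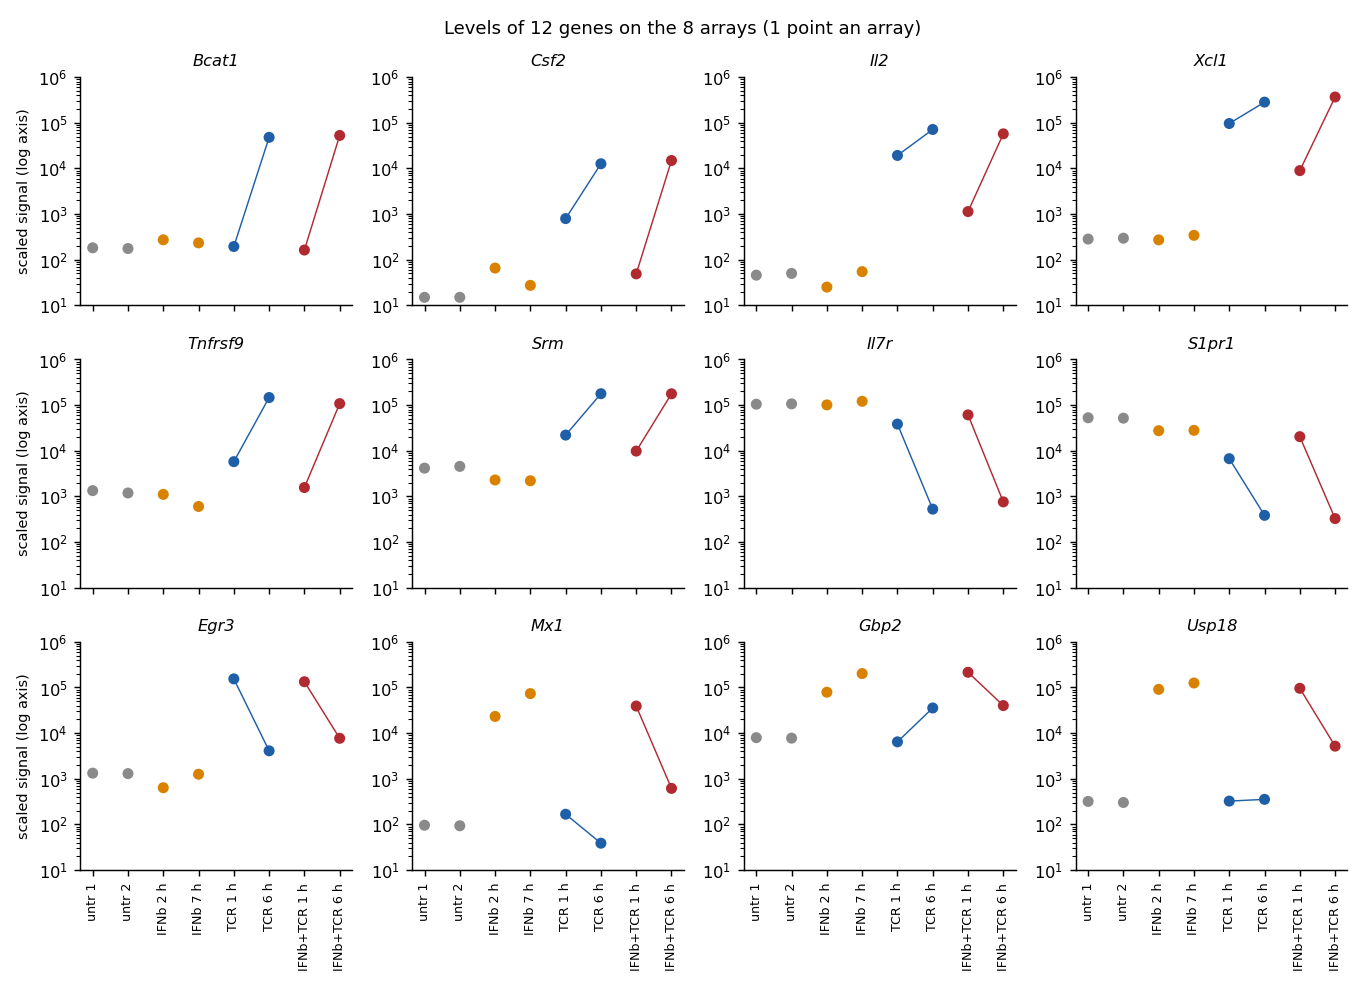
Scaled signal (log y axis) of 12 genes on the 8 arrays, 1 point an array, with lines joining 1 h to 6 h of TCR stimulation (blue without IFNb, red after IFNb), grey untreated and orange IFNb alone. In the panels for Csf2, Il2 and Xcl1 the red 1 h point lies below the blue one and the 6 h points lie close together, in those for Bcat1 both 1 h points are at the untreated level, and in those for Mx1 and Usp18 the red 6 h point lies far below the red 1 h point, all as the value table names the 1 h arrays.

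Costimulatory receptor genes were mostly higher late under the value table's naming. Tnfrsf9, which encodes 4-1BB, went from 1565 to 107909, a 69-fold difference, and stood at 5778 and 146664 without IFNb. Its probes ranged from 0.27 to 6.11, and the brightest is given. Il2ra, the alpha chain of the IL-2 receptor, went from 2565 to 25596 in primed and from 910 to 21428 in unprimed cells. The early primed level of Il2ra was the higher of the 1 h pair, so its late gain of 3.32 was under the unprimed 4.56; with the arrays exchanged the gains were 4.81 and 3.06. In the list, 13 of 23 genes were at least 2-fold higher and 3 lower, against 18.9% and 21.8% of all genes. The list's median was 1.22, against 0.28 without IFNb. This list rested on the naming of the 1 h arrays. Exchanged, 5 of 23 primed genes were higher and 2 lower, against 15.6% and 17.7% of all genes. The primed median was then 0.14 and the unprimed one 1.45. Cd83 stood at 3.15, Crtam at 3.11, Cd200 at 2.96, the transferrin receptor gene Tfrc at 2.66, Cd6 at 2.01 and Cd44 at 2.00. Of these, Cd83, Crtam and Cd6 came to 0.99, 0.77 and 0.96 with the arrays exchanged, Cd200 to 4.08 and Tnfrsf9 to 4.22. Cd160 had 1191 at 1 h and 13802 at 6 h in primed cells and 16240 and 9013 in unprimed cells; under the scanner files' naming its primed difference of 3.54 became -0.23. Cd69, an early activation marker, stood at 310040 and 244544, and Tnfrsf1b at -2.51. Among inhibitory receptors Lag3 was 10.1-fold higher (43.9-fold with the arrays exchanged) and Havcr2 at 1.94, while Cd96 stood at -3.10 and Pdcd1 at 0.38. Of that list of 12 genes, 4 were 2-fold higher and 4 lower, against 18.9% and 21.8% of all genes and 2 and 3 with the arrays exchanged, and its median of -0.37 was 0.00 with median scaling.

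Cytotoxic genes differed by member. Gzmb, the main killing protease of CD8+ T cells, went from 12498 to 51198 in primed cells and from 4077 to 45686 in unprimed cells. Gzmc was 14-fold higher, and the granzyme inhibitor genes Serpinb6b and Serpinb9 were 14.7-fold and 9.01-fold higher. Gzma, by contrast, had a signal of 6620 at 1 h and 201 at 6 h, against 537 and 518 in untreated cells and 2929 and 12582 after IFNb alone. Gzma is also one of the NK cell markers, a list that was higher on the arrays of IFNb alone than in untreated cells. Prf1, the perforin gene, stood at 2968 and 5830 in primed cells and at 11873 and 4379 in unprimed ones, and its difference of 0.97 became -1.03 under the scanner files' naming. Exchanging the 1 h arrays gave 3.65 for Gzmb in place of 2.03, 4.08-fold for Gzmc, 21.3-fold for Serpinb9 and -1.54 for Gzma in place of -5.04. Of 13 genes compared, 5 were at least 2-fold higher and 3 lower, the latter a share near the 21.8% of all genes, and both counts were the same under the other naming.

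Ribosome biogenesis genes were higher at 6 h throughout their list. All 55 genes were at least 2-fold higher, against 18.9% of all genes, with values from 1.25 to 4.17 and a median of 2.33. Srm, the spermidine synthase gene placed in this list as a MYC target, went from 9842 to 177287 (chr4:147968433-147968492 in mm9), and the nucleolar gene Nop16 from 4837 to 81246. Polr1b, a subunit of RNA polymerase I, went from 2447 to 32208, and Rrp1b from 1285 to 15286. At 1 h the primed list lay 0.47 above untreated, with 9 of 55 genes 2-fold higher, and the unprimed list 1.03 above, with 30 of 55. At 6 h both lists had 55 of 55 genes at least 2-fold above untreated, with medians of 2.85 and 2.84. For the same genes IFNb alone gave a median of -0.60 at 2 h and one of -0.61 at 7 h. The 55 genes without IFNb had a median 6 h to 1 h difference of 2.01. With the 1 h arrays exchanged 50 of the 55 primed genes were at least 2-fold higher and 0 lower, the primed median was 2.05 and the unprimed one 2.33, with Srm at 3.01, Nop16 at 2.94 and Rrp1b at 2.45. The probes of Rrp1b ranged from -0.04 to 3.80.

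The rest of the protein synthesis machinery was higher too. Of the aminoacyl-tRNA synthetases, which charge tRNAs with amino acids, 18 of 20 were at least 2-fold higher and 0 lower, with a median of 2.19 and with Farsb 8.07-fold and Sars 8.01-fold higher. Translation initiation factors had 16 of 17 genes higher, a median of 1.87, and Eif4ebp1, which restrains cap-dependent initiation, at 5.26, from 4099 to 156923. Eif5a was 7.17-fold and Eif4e 5.00-fold higher. Genes of the cytosolic ribosomal proteins, already among the brightest on the array, showed a small and even difference: 39 of 39 lay above 0, from 0.33 to 1.57, and only Rpl14 was past 2-fold. Their median of 0.62 was 0.05 with quantile normalization and 0.27 with the 1 h arrays exchanged, where the synthetases stood at 2.08, the initiation factors at 1.33 and Eif4ebp1 at 4.47.

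Metabolic genes followed. Hk2, the inducible hexokinase gene, went from 1383 to 42665, a 30.9-fold difference, and Tpi1, a glycolytic isomerase gene, from 4795 to 113776. Pfkl, Pgk1 and the lactate transporter gene Slc16a1 stood at 3.30, 2.90 and 2.54. Of 27 glycolysis and glucose uptake genes 15 were at least 2-fold higher, against 18.9% of all genes. The 6 that were lower, among them Hk1 at -2.02 and Ldhb at -2.12, were a share near the 21.8% of all genes. Pdk1, which restrains pyruvate oxidation, stood at -0.84 with IFNb and 1.46 without. In the list of one-carbon and nucleotide synthesis 18 of 24 genes were higher and 2 lower, with Shmt1 25.9-fold, Shmt2 12.2-fold and the CTP synthase gene Ctps 11.3-fold higher. Respiratory chain and mitochondrial import genes had 21 of 29 higher and 0 lower, with the import genes Timm9, Tomm40 and Timm50 at 3.70, 3.40 and 3.11. Chaperonin and heat shock genes had 17 of 22 higher and 3 lower, against 18.9% and 21.8% of all genes. Hspd1 led the list at 2.73, while the stress-inducible Hspa1a was lower at -2.51. Lipid genes went both ways: the sterol synthesis gene Sqle was 6.52-fold higher, and the cholesterol exporter genes Abca1 and Abcg1 were 28.7-fold and 27.5-fold lower. Elovl6, which lengthens fatty acids, was 54.5-fold lower, with 14385 at 1 h and 264 at 6 h. On the other 1 h array the gap of Elovl6 was 6.67-fold and that of Abca1 12.2-fold, Hk2 was 19.6-fold, Tpi1 9.55-fold and Shmt1 9.22-fold higher, Hk1 stood at -0.88 and Pdk1 at 0.31 with IFNb and 0.30 without. The list medians changed less, from 1.56 to 1.01 for glycolysis, from 2.34 to 1.99 for one-carbon and nucleotide synthesis and from 1.63 to 1.22 for the respiratory chain. The probes of Timm9 disagreed, from 0.07 to 3.70.

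**Figure D3:**
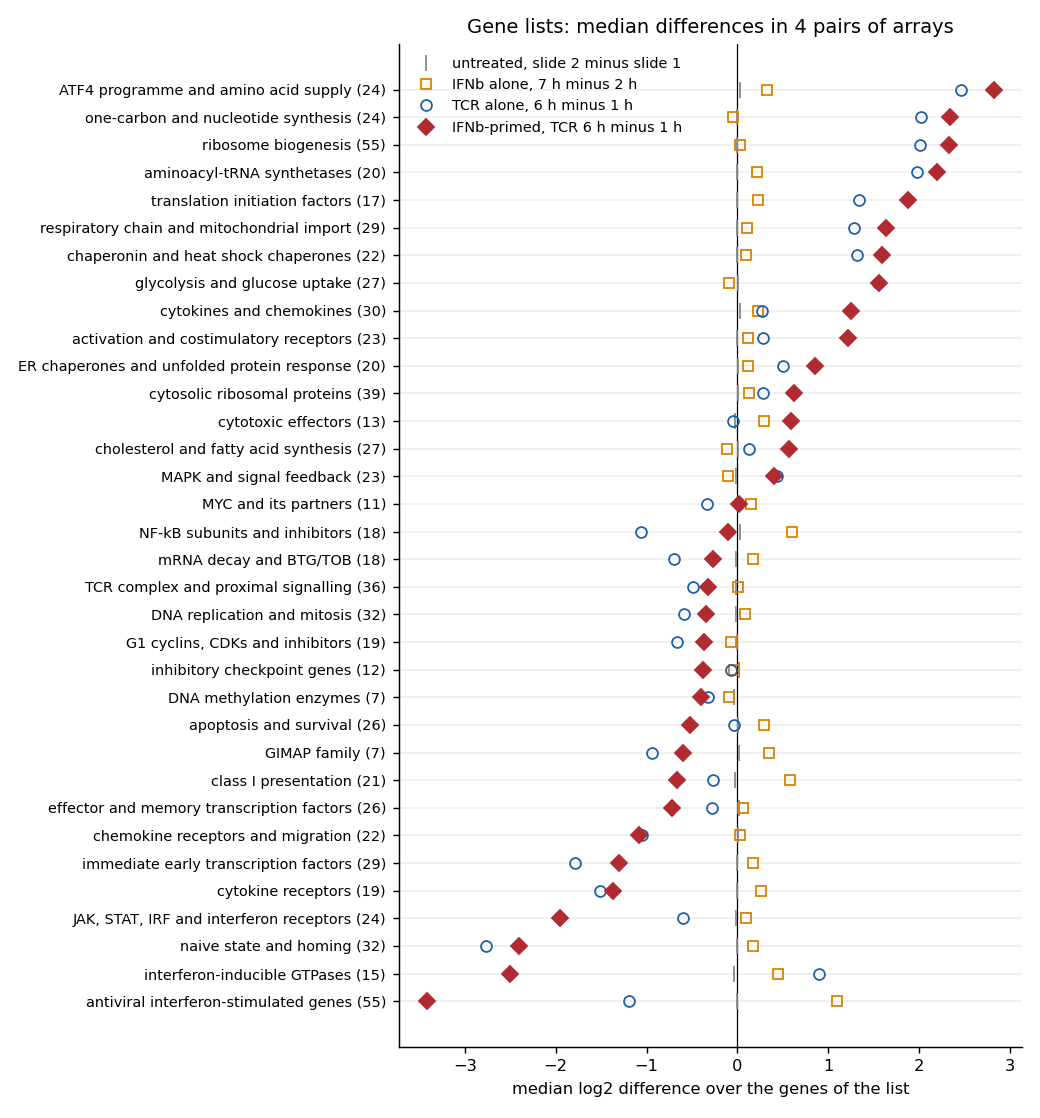
Median log2 difference (x axis) over the genes of 34 lists (y axis, number of genes compared in brackets) in 4 pairs of arrays. Filled red diamonds are IFNb-primed cells, TCR 6 h minus 1 h, blue circles TCR alone over the same hours, orange squares IFNb alone, 7 h minus 2 h, and grey ticks the untreated arrays; red and blue lie close for ribosome biogenesis (2.33 and 2.01) and far apart for antiviral genes (-3.42 and -1.19) and GTPases (-2.50 and 0.90), as the value table names the 1 h arrays.

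Replication genes did not share in this gain. Of 32 DNA replication and mitosis genes 0 were at least 2-fold higher, against 18.9% of all genes, and 3 lower, against 21.8%. Mki67 stood at -1.79 and Rrm2 at -1.74, and the list's median of -0.34 was 0.03 with median scaling. Of 19 G1 cyclins, CDKs and inhibitors 4 were at least 2-fold higher, a share near the 18.9% of all genes, and 7 lower, against 21.8%. Their median of -0.37 was 0.00 with median scaling. Cdk4, which drives entry into the cycle, was 9.12-fold higher. The restraining genes Cdkn2d, Rbl1 and Rbl2 were 15.6-fold, 15.7-fold and 10.2-fold lower. Rbl1 had 16379 on the primed 1 h array and 1044 at 6 h, and with the 1 h arrays exchanged it was only 1.75-fold lower, while Cdkn2d and Rbl2 were 29.7-fold and 10.0-fold lower. Myc itself was high early and late, with 113928 at 1 h and 146112 at 6 h against 2227 and 2350 in untreated cells. Its antagonists Mxd1 and Mxd4 were 34.3-fold and 12.9-fold lower, or 4.14-fold and 27.3-fold with the arrays exchanged, and the probes of Mxd4 ranged from -3.69 to 0.30.

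Immediate early transcription factors were lower at 6 h but mostly still above rest. Egr3 had a signal of 133659 at 1 h and 7704 at 6 h, against 1326 and 1298 in untreated cells, and Fos had 27224 and 4276, against 551 and 564. Of 29 genes 16 were at least 2-fold lower and 1 higher, with a median of -1.30, against 24 lower, 0 higher and a median of -1.79 without IFNb. With the arrays exchanged the primed list had 22 lower, 0 higher and a median of -1.76 and the unprimed list 17, 1 and -1.15. At 1 h 25 of the 29 were at least 2-fold above untreated in primed cells, and at 6 h 20 were. The gene higher at 6 h was Fosl1, an AP-1 subunit, at 2.43, or -0.09 with the arrays exchanged. Nr4a2 and Nr4a3, orphan nuclear receptors switched on by the TCR, were less high at 1 h with IFNb as the value table names the arrays, and the scanner files give the opposite order: Nr4a2 stood at 74560 and Nr4a3 at 486, against 215045 and 4725 without it. Their 6 h levels were close, with 46902 and 47705 for Nr4a2 and 180 and 219 for Nr4a3. Klf2, a quiescence factor also in this list, was 18.3-fold lower by its brightest probe (-4.19), while its other probe stood at 0.21. Jun was 6.13-fold lower, or 2.69-fold with the arrays exchanged. The mRNA decay gene Zfp36, which destabilises cytokine messages, was 8.50-fold lower, and of the NF-kB list Nfkbiz stood at -1.56, Bcl3 at -2.75 and Ikbke at -3.11. Nfkb1 had probes that disagreed, from -1.35 to 2.38, and the brightest gave 2.38. In all, 99 of the genes past 2-fold had a probe past 2-fold in the other direction.

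Genes of the naive, recirculating state were among the lowest late. Il7r, the receptor for the survival cytokine IL-7 (chr15:9435976-9436035 in mm9), went from 61139 to 759, an 80.5-fold difference, and stood at 104797 and 106565 in untreated cells. S1pr1, which lets T cells leave lymph nodes, went from 20380 to 327 in primed cells and from 6715 to 385 in unprimed cells. Of 32 genes 26 were at least 2-fold lower and 0 higher, with a median of -2.41 against -2.77 without IFNb; 21 were past 4-fold. With the 1 h arrays exchanged 24 were lower and 4 higher, with a median of -2.72, and Il7r and S1pr1 were 50.6-fold and 20.5-fold lower. The transcription factor genes Klf3, Tcf7 and Lef1 stood at -4.47, -2.48 and -2.23, and the integrin genes Itgae and Itga6 at -4.71 and -4.35. Ccr7, the lymph node homing receptor gene, was lower than untreated on both arrays (11036 and 14087 against 49800 and 48101), and its late minus early value was 0.35, or -0.11 with quantile normalization and 1.11 with the arrays exchanged. The probes of Itga6 ranged from -4.56 to 0.00. Outside the list, Cd7 was 71.4-fold, the nucleoside transporter gene Slc28a2 56.0-fold, the integrin gene Itgb7 27.9-fold and Rflnb 55.7-fold lower. Ggt1 was at least 93.9-fold and Rasgrp2, an activator of Rap1, at least 43.6-fold lower.

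Gpat3, a glycerolipid enzyme gene, had the widest lower value among named genes well above background on both arrays, with 2538 at 1 h and 22.6 at 6 h (-6.81). Without IFNb it stood at 545 and 45.8, and in untreated cells at 211 and 220. The adaptor gene Gab3 and the nuclear envelope gene Syne2 were 66.6-fold and 69.2-fold lower, and both were higher on the IFNb arrays than in untreated cells. With the 1 h arrays exchanged the gaps of Gpat3, Gab3 and Syne2 were 24.1-fold, 10.3-fold and 11.1-fold.

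Antiviral genes were high at 1 h in primed cells and lower at 6 h. Mx1, a GTPase that blocks virus replication, had 39205 at 1 h and 616 at 6 h, against 96.0 and 93.3 in untreated cells and 23211 and 73415 after IFNb alone for 2 h and 7 h. Ifit1, which binds foreign RNA, had 150958 and 3573, against 123371 and 100419 with IFNb alone. Cmpk2 had 53325 and 877, and Mx2 51918 and 1121. In each case the late primed array lay far below both IFNb arrays and above untreated. The sample titles do not say whether IFNb stayed on during TCR stimulation. Length of IFNb exposure and TCR stimulation therefore cannot be told apart from these labels when primed cells are set against IFNb alone. Of 55 genes 49 were at least 2-fold lower and 0 higher, with a median of -3.42, where IFNb alone from 2 h to 7 h had a median of 1.10 and TCR alone one of -1.19. Over untreated, the list's median was 4.55 at 1 h and 1.47 at 6 h in primed cells, 3.21 and 4.94 for IFNb alone at 2 h and 7 h, and -0.19 and -1.24 for TCR alone. Isg15, a ubiquitin-like modifier, was nearer its early level, with 204734 and 73220. Under the scanner files' naming the list had 38 genes higher and 2 lower, its median was 1.48, Mx1 stood at 1.88, Ifit1 at 2.50 and Isg15 at 3.95, so the lower direction of this list holds for the value table's naming only.

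**Figure D4:**
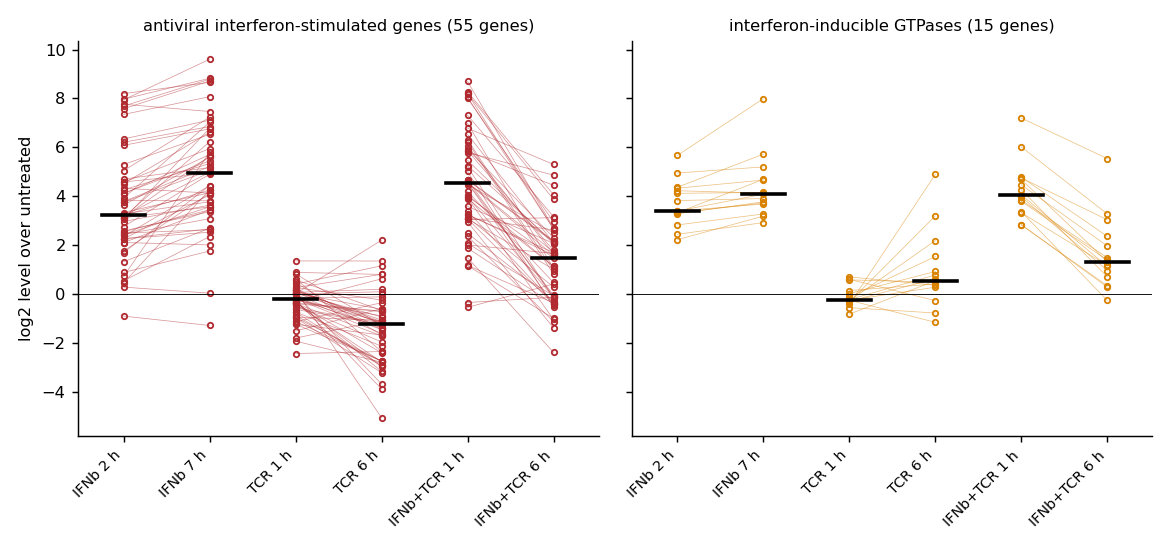
Log2 level over the mean of the untreated arrays (y axis) for each gene of 2 interferon lists on 6 arrays (x axis), with thin lines joining the early and late array of a treatment and thick bars at the list medians. The antiviral medians are 3.21 and 4.94 with IFNb alone, -0.19 and -1.24 with TCR alone and 4.55 and 1.47 with IFNb and TCR at 1 h and 6 h, as the value table names the arrays.

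The interferon-inducible GTPases, which attack the membranes of intracellular microbes, had opposite medians with and without priming. All 15 genes were at least 2-fold lower in primed cells, from -3.63 to -1.66, with a median of -2.50, while TCR alone had 6 higher, 0 lower and a median of 0.90. Gbp2 had 215343 at 1 h and 40150 at 6 h in primed cells and 6439 and 35579 in unprimed cells. Iigp1 had 37100 and 11736 in primed cells and 188 and 7485 in unprimed cells. The early levels differed widely between the treatments and the late levels of these genes lay near each other. With the arrays exchanged the primed list had 11 genes higher, 0 lower and a median of 1.43 and the unprimed list 15 lower and a median of -3.43, so both signs turned.

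Genes of interferon signalling were lower late. Stat2 stood at 12705 and 840, against 1024 and 1061 untreated, and Irf7 at 28641 and 4323. Usp18, which switches off the interferon receptor, had 95847 at 1 h and 5187 at 6 h. Of 24 genes in the list of JAK, STAT and IRF factors and interferon receptors, 18 were at least 2-fold lower and 1 higher, with a median of -1.96 against -0.60 without IFNb and -0.38 under the scanner files' naming, where Stat2 stood at 1.21, Irf7 at 1.33 and Usp18 at 4.00. The receptor genes were lower too and kept that direction under both namings: Ifngr2 went from 7507 to 349 and Ifngr1 from 100632 to 7202, below the untreated 8778 and 8348 and 151379 and 149449. Ifnar1 stood at -1.46 and Ifnar2 at -1.39, or at -1.46 and -0.39 with the arrays exchanged. The inhibitor genes Socs1 and Socs3 were 5.43-fold and 14.2-fold lower, or 5.21-fold and 5.87-fold. Jak2, at 2.45, was the only member at least 2-fold higher under the value table's naming. In class I presentation, the immunoproteasome genes Psmb10 and Psmb8 were 9.60-fold and 4.97-fold lower. Of 21 genes 9 were at least 2-fold lower and 1 higher, against 21.8% and 18.9% of all genes. The list's median of -0.66 was 0.01 under the scanner files' naming, with 2 lower, 5 higher, Psmb10 at -1.08 and Psmb8 at -0.50.

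Survival and effector regulators differed by member. Bcl2l1, the gene of the survival protein BCL-XL, went from 315 to 6978 in primed and from 1374 to 7526 in unprimed cells. Among pro-apoptotic genes, Bax stood at 2.87 and Bid at 2.22, while Pmaip1 was 8.77-fold lower. The caspase gene Casp8 was 7.94-fold lower. Of 26 apoptosis and survival genes 5 were at least 2-fold higher and 11 lower, against 18.9% and 21.8% of all genes. Their median of -0.52 was 0.24 with the 1 h arrays exchanged, where 6 were higher and 7 lower. Among effector and memory transcription factors 6 of 26 were at least 2-fold higher, a share near the 18.9% of all genes, and 11 lower, against 21.8%, and 8 and 7 with the 1 h arrays exchanged. Zbtb32 was 22.8-fold and Zeb2 6.53-fold higher, and Zeb1, Ikzf2 and Ikzf1 stood at -2.87, -2.85 and -2.43. Eomes, a memory factor gene, was at -1.35 with IFNb and 1.63 without. These signs turned with the arrays exchanged, to 1.58 and -1.30, and Bcl2l1 came to 2.34, Casp8 to -0.35, Zeb1 to -1.93 and Ikzf2 to -1.68. Irf4 and Tbx21 were high early and late, with 93438 and 99848 for Irf4 and 14361 and 9800 for Tbx21, and untreated levels of 1355 and 1395 and of 273 and 275.

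Across the 16204 genes well above background on all 4 TCR arrays, primed and unprimed differences had a Pearson correlation of 0.82 and a Spearman correlation of 0.81, which are descriptions across genes. The pairs share no array but share both slides. Of the genes at least 2-fold higher in primed cells 65.9% were so in unprimed cells, and 80.5% the other way round; for lower genes the shares were 62.3% and 73.0%. The primed difference exceeded the unprimed one by at least 4-fold for 94 genes and was at least 4-fold under it for 469. Utf1, with 287 at 1 h and 7760 at 6 h in primed cells, was among the former, against 2912 and 6509 in unprimed cells, as were Il2, Csf2 and Xcl1. These counts and examples use both 1 h arrays: exchanged, 403 genes exceeded and 153 were under, the correlations were 0.76 and 0.79, and the primed values of Utf1, Il2 and Csf2 (1.41, 1.57 and 4.23) lay below the unprimed ones (4.50, 5.98 and 8.01).

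**Figure D5:**
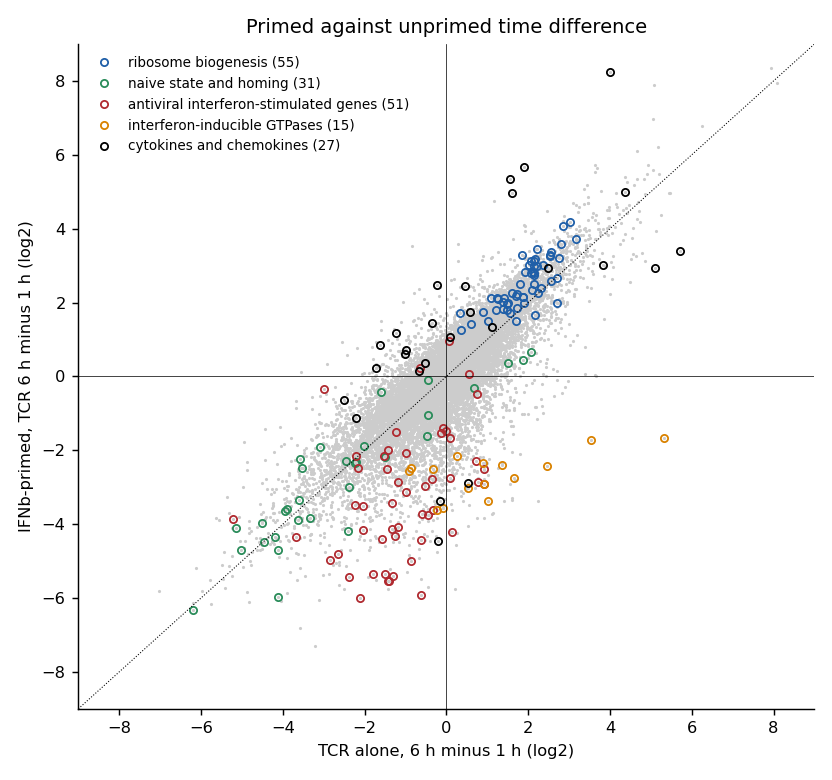
Log2 difference between 6 h and 1 h of TCR stimulation per gene, without IFNb (x axis) and after IFNb (y axis), for genes well above background on all 4 arrays (grey), with 5 lists as coloured circles and the dotted line at equality. Ribosome biogenesis genes lie a median of 0.66 above the line, against 0.11 over all genes. Antiviral genes and GTPases lie mostly below the line, and Csf2 (8.25), Il2 (5.66), Xcl1 (5.36) and Il3 (4.97) lie above it. All positions are as the value table names the 1 h arrays.

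Relative to untreated cells, and with 4-fold as the limit, 859 genes were high first at 6 h in primed cells and 999 were low first at 6 h. Of these, 521 and 620 had the same course without IFNb, or 60.7% and 62.1%. In primed cells 205 genes were high at both times. Genes high at 1 h and at least 4-fold lower again at 6 h numbered 334 in primed and 120 in unprimed cells, with 28 in common; 28 of the 334 were also among the 205 high at both times, since a gene can be 4-fold lower than at 1 h and still be high. The 334 were 1.71% of all genes and held 39 of 55 antiviral genes, 13 of 15 GTPases and 4 of 29 immediate early genes. With the 1 h arrays exchanged this course had 146 primed and 355 unprimed genes, and the primed ones held 0 antiviral genes, 0 GTPases and 11 immediate early genes, while genes high first at 6 h numbered 674 and those low first 863.

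Markers of the sorted cell were present: 8 of 8 CD8+ T cell markers were well above background on both arrays, with summed signal of 642140 at 1 h and 348220 at 6 h. Cd8a stood at 35460 and 12370 and Cd247 at -2.81. Of the 8, 4 were at least 2-fold lower, against 21.8% of all genes. Fewer cells of a type and less RNA per cell cannot be told apart in these bulk samples. B cell markers had less summed signal than the CD8+ T cell markers, 12530 and 6081, with 7 of 8 above background on each array. Of the 8 B cell markers, 4 were at least 2-fold lower, against 21.8% of all genes, and 2 lay above 0, with Cd79b and Cd79a at -1.98 and -1.28. Myeloid markers summed to 7299 and 3032, class II markers to 18874 and 15267 and NK cell markers to 9919 and 2369, a gap to which Gzma contributed. Of the 9 NK cell markers 8 were well above background at 1 h and 7 at 6 h. Ncr1, a defining NK cell gene, was at the floor on both arrays. CD4 T cell markers summed to 327 and 345 and erythroid markers to 16555 and 10764. The arrays of IFNb alone for 2 h and 7 h held more B cell marker signal, 48281 and 40638, against 15121 and 14793 in untreated cells. Their NK cell markers summed to 8850 and 19323, against 3042 and 2935 in untreated cells. The part of other cell types in the results above was not tested.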

How the data were processed

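RNA was measured on 8 Agilent mouse arrays in 1 colour, with 2 slides of 4 arrays. The scanner files hold intensity that, per the file headers, the authors made with Feature Extraction 10.7.3.1 (9.5.3.1 per the submitters' processing notes), with background subtraction and spatial detrending. The deposited value table is intensity too: each column equalled 1 array's processed signal times a factor of 1.209 to 1.857, the 75th percentile then being about 1500, with a floor of 15, so its scale, centring and direction are known. Column medians were 89.6, 102, 92.6, 95.8, 92.2, 101, 80.7 and 73.8. For the arrays of TCR stimulation for 1 h, with and without IFNb, the match was crossed: each column fitted the scanner file of the other.

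Values are log2 of the value table. Outlier spots (100 to 246 an array) were left out, repeated spots averaged, probes left out unless at least 2 arrays had them well above background, and the brightest probe taken per gene (19532 genes, 55 without a value on 1 of the arrays compared). Gene symbols came from RefSeq by accession or from the file. A gene not well above background on 1 array of a pair was given as a bound against the lowest signal well above background. With 1 array a group, called means past 2-fold or 4-fold and no test was made. The script was checked on simulated data. R 4.3.3 with limma 3.58.1 served for normexp (offset 50), and Python 3.11.15 with numpy 2.4.6, pandas 2.3.3 and matplotlib 3.10.9 for the rest. Probe coordinates are mm9 and promoter windows GRCm38.p6.

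Genes were named from the 15 widest differences in each direction, the 8 widest bounds, the 4 widest of each list, the 10 widest gaps between primed and unprimed differences and fixed genes. Other genes are named as examples of their lists, chosen after their values were seen. The comparison, the genes and the lists were chosen with earlier results of these data known. Alternatives changed the naming of the 1 h arrays, scaling, background correction, filters, choice of probe and slide correction. A few genes of the lists are not reported here by name, though they are part of the list counts and medians.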

Additional observations from a re-analysis of the deposited data

Results flagged for a closer look

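A set of genes had opposite differences between 1 h and 6 h of TCR stimulation with and without IFNb, each past 2-fold: of the 16204 genes well above background on all 4 TCR arrays, 41 were lower in primed and higher in unprimed cells and 7 the reverse. The differences between treatments were not tested, since each group had 1 array. The 6 among the named genes follow. Gbp2 stood at -2.42 in primed and 2.47 in unprimed cells, Gbp5 at -1.71 and 3.52, Gbp6 at -2.74 and 1.66, Gbp7 at -3.36 and 1.01, and Iigp1 at -1.66 and 5.32. For these 5 genes, all interferon-inducible GTPases, both signs turned under the scanner files' naming of the 1 h arrays, and the counts over all genes became 21 and 102. Nlrp6, a sensor of the NOD-like family, stood at 2.02 in primed and -1.07 in unprimed cells, and at -0.47 under that naming.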

How the results depend on the processing

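Depth is signal over background, and 1 array a group limits every value. Of the 5 counts and shares, 2-fold higher genes numbered 5609 and 4-fold higher genes 1802 with median scaling, where higher genes made up 64.5% of calls, and 2-fold lower genes numbered 2497 and 4-fold lower genes 954 with normexp background. The scanner files' naming of the 1 h arrays turned the medians of antiviral genes (1.48) and GTPases (1.43) and these genes of the naming rule: Mx1 1.88, Cmpk2 1.32, Cd160 -0.23, Tor3a 0.20, Mx2 2.69, Gbp8 0.30, Gbp3 0.13, Gbp7 1.55, Irgm2 1.21, Usp18 4.00, Stat2 1.21, Tnfsf10 0.72, Nlrp6 -0.47, Iigp1 5.96, Ifit1bl1 2.48, Gbp5 3.37, Gbp2 2.64, Slfn3 1.64, Gbp6 3.41, Csf1 0.64, Irf7 1.33, Isg15 3.95, Ifit1 2.50 and Ifit3 4.03. That setting uses the other 1 h array. Of the 184 named genes past 2-fold, 149 kept direction and 2-fold size under it, 11 came to under 2-fold, and 24 turned; with the direction kept, 81 were narrower and 20 wider by more than 1.5 times, and 22 list medians moved by more than the SD between untreated arrays. Sizes moved under other settings too. Quantile normalization moved 25 list medians and 141 of the 204 named genes, and normexp background 3 and 83. Median scaling moved all 35 medians, that over all genes included, and all 204 named genes. The median over probes turned Nfkb1 (-0.66), whose probes disagreed. Among differences past 2-fold, no other gene of that rule and no list turned under median scaling, normexp background, quantile normalization, no filter, both arrays above background, subtraction of the slide's untreated array, or no floor at 15, which was chosen after seeing the data. No paired analysis was possible because each group compared had 1 array.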
